A study of Rattus norvegicus with 2 samples.

Results

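Laminins are cross-shaped proteins of 1 alpha, 1 beta and 1 gamma chain that form the core of basement membranes, the thin sheets of matrix under the pia and around blood vessels of the brain. Integrins are receptors of 1 alpha and 1 beta chain that hold cells to laminin, collagen, fibronectin and other matrix proteins, or to other cells, and pass signals in both directions across the membrane. In brain, laminins are known mostly from vessels and the glial boundary layer, while integrins are found on neurons, glia, vessel cells and microglia. The genes of both families were taken by name, from all genes named as laminin alpha, beta or gamma chains or as integrin alpha or beta genes with transcripts in the mRNA table, leaving out the binding proteins of the Itgb1 product. This gave 39 of 22777 genes, with 45 transcripts: 11 laminin chain genes, 26 integrin chain genes and 2 genes that share the name but are no integrin chains, Itgbl1, which encodes a secreted protein with repeats like those of integrin beta chains, and Itgb3bp, which encodes a nuclear protein of the centromere. The rule used gene names, and the families were picked with earlier results of these data known.

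Hypothalamic RNA was compared between prepubertal and pubertal female Sprague Dawley rats, with no treatment or genetic change in either group. Prepubertal rats were taken at postnatal day 25 and pubertal rats at postnatal day 35, in their first estrus. The methods give 3 rats per stage, but each stage has 1 column of values in the files and the sources used here do not say how RNA or reads of the rats were joined, so there were no replicates and no difference between the stages could be tested against the spread between animals. Age, ovarian state and dissection cannot be told apart in this comparison, and in bulk tissue neither can fewer cells of a type and less RNA per cell. The peptide genes of hypothalamic neurons were present in both libraries, 8 of 8 markers above 0, with a summed level of 2696 FPKM before puberty and 4111 FPKM at puberty.

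Levels were given as FPKM, the fragments mapped to a transcript, scaled by its length and by the total of the library, which can be compared between genes of different length. FPKM of low genes moved in steps, so the number of fragments behind a value could be derived for genes of 1 transcript. In genes with up to 40 fragments, the values came out whole within 0.1 for 93.9% of 3302 values before puberty and 93.8% of 3570 at puberty, and for 21 of 21 values of the members. By these steps 1 FPKM of a transcript of 3000 nt stood for 57.0 fragments before puberty and for 44.6 at puberty. The prepubertal library was thus 1.28 times as deep. The 95% intervals given here are exact Poisson intervals of a level, or exact binomial intervals of a ratio of the libraries. They cover counting error only and hold nothing of the spread between rats.

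Of the 39 genes, 24 had a mean FPKM over both libraries of at least 1, 9 of them laminin chains, 13 integrin chains and the others Itgbl1 and Itgb3bp. The highest was Itgb1 and the lowest of the 24 was Itga4. The plot of levels shows these 24 genes in both libraries.

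**Figure D1:**
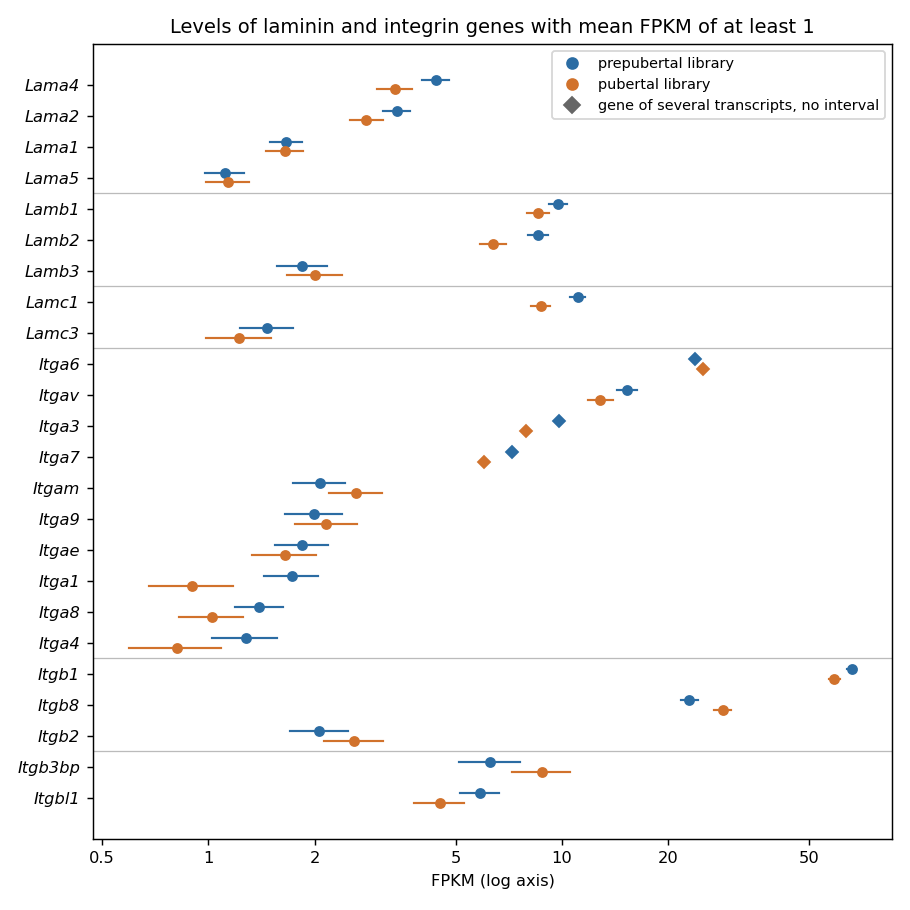
FPKM (log axis) of the 24 genes with a mean FPKM of at least 1, in the prepubertal (blue) and the pubertal library (orange), grouped from the top as laminin alpha, beta and gamma chains, integrin alpha and beta chains and the 2 genes that are no chains. Lines are 95% Poisson intervals of the fragment count, which genes of several transcripts (diamonds) lack. Itgb1, at 66.0 and 59.0 FPKM, stands above every other gene shown.

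Among the laminins, the gamma chain gene Lamc1 and the beta chain genes Lamb1 and Lamb2 had the highest levels. Lamc1, the gamma chain of most laminins, had 11.1 FPKM before puberty (interval 10.6 to 11.6) and 8.71 at puberty (8.19 to 9.26), from 1699 and 1043 fragments. The intervals did not overlap, and the ratio of pubertal to prepubertal FPKM was 0.786 (0.727 to 0.849).

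Lamb1, the beta chain of embryonic and many adult laminins, went from 9.75 to 8.57 FPKM, with a ratio of 0.879 (0.799 to 0.967) as deposited, which included 1 with equal medians and lay above 1 with equal Actb. Lamb2, the beta chain known from synapses, vessels and kidney, went from 8.56 to 6.40 FPKM, with a ratio of 0.748 (0.672 to 0.832). Of the 9 laminin chains it had the lowest ratio, and Lamb2 over Lamb1 was 0.877 before puberty and 0.747 at puberty. Lamb3, which belongs to the laminin of skin and other epithelia, had 1.84 and 2.0 FPKM, and its ratio of 1.09 had an interval of 0.848 to 1.39 that included 1.

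Of the alpha chains, which carry the sites that cell receptors bind, Lama4 came first. Lama4, a chain of vessel walls, had 4.40 FPKM (4.03 to 4.80) before puberty and 3.37 (3.0 to 3.76) at puberty, a ratio of 0.765 (0.662 to 0.882). Lama2, the chain whose loss causes a congenital muscular dystrophy, went from 3.41 to 2.80 FPKM, a ratio of 0.822 (0.714 to 0.944). Both intervals lay below 1 as deposited and with equal medians, and included 1 with equal Actb.

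Lama1, the chain of the earliest embryonic basement membranes, was listed at 1.66 and 1.65 FPKM, with a ratio of 0.991 (0.842 to 1.16). Lama5, a chain of mature vessels and epithelia, was listed at 1.11 and 1.13 FPKM, with a ratio of 1.02 (0.844 to 1.23). These genes have the longest transcripts of the members, 10570 and 11307 nt, and their levels as deposited differed by less than the counting error, while both ratios lay above 1 with equal Actb, at 1.31 (1.12 to 1.54) and 1.35 (1.12 to 1.63). Lamc3, a gamma chain known from retina and cortex, had 1.46 and 1.22 FPKM and a ratio of 0.835 (0.633 to 1.10), which included 1. The epithelial chain Lama3, at 0.973 and 0.847 FPKM, lay under the mean FPKM of 1.

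Since a laminin holds 1 chain of each class, the sums of the alpha and of the beta chains were set side by side. The 5 alpha chains summed to 11.6 FPKM before puberty and 9.79 at puberty, and the 3 beta chains to 20.2 and 17.0. With the libraries scaled to equal medians the pubertal sums were 10.2 and 17.6 FPKM, still below the prepubertal ones. Equal Actb, which multiplies all pubertal FPKM by 1.32 and so turns any smaller difference, gave 12.96 and 22.5 FPKM. The beta sum was the higher one in both libraries. In the beta class, Lamb1 made up 48.4% and 50.5%, and Lamb2 42.5% and 37.7%. In the alpha class, Lama4 made up 38.1% and 34.4%, Lama2 29.5% and 28.6% and Lama1 14.4% and 16.8%.

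**Figure D2:**
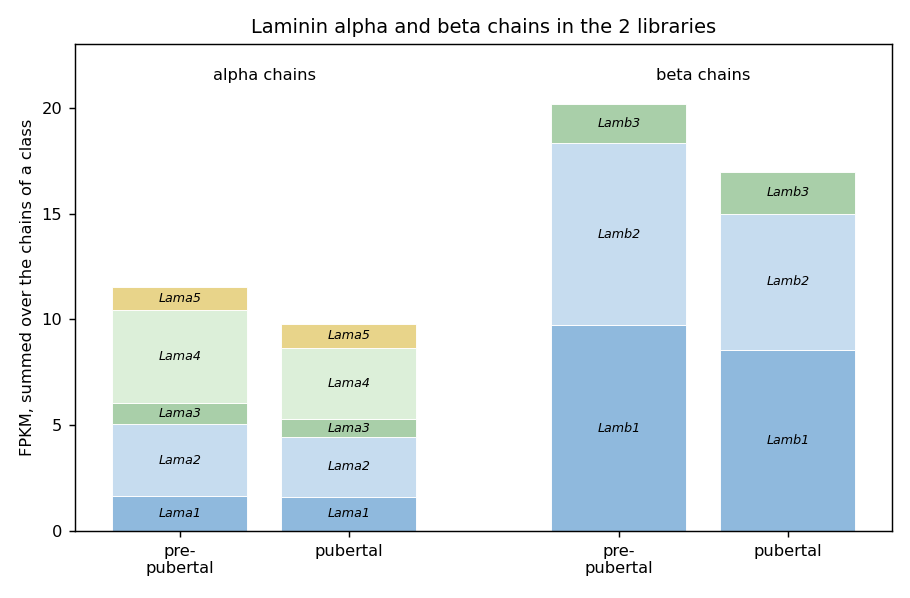
Summed FPKM of the laminin alpha and beta chain genes in each library, with each chain as a segment; there is 1 library per stage and no error bar. As deposited the prepubertal bar is the higher one in both classes, 20.2 against 17.0 FPKM for the beta chains, an order that equal medians keep (17.6 FPKM at puberty) and that the factor of 1.32 of equal Actb turns (22.5 FPKM).

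Among the integrins, 1 beta chain stood out by level. Itgb1, the shared beta chain of the receptors for laminin, collagen and fibronectin, had 66.0 FPKM (64.2 to 68.0) before puberty and 59.0 (57.0 to 61.0) at puberty, from about 4665 and 3256 fragments. The ratio was 0.893 (0.853 to 0.934) as deposited and 1.18 (1.13 to 1.24) with equal Actb. It made up 71.4% of the FPKM of the 8 integrin beta chain genes before puberty and 64.7% at puberty.

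Itgb8, which pairs with the Itgav product and takes part in the activation of latent TGF-beta at the surface of glia, was, of the 19 measured chain genes with a counting interval, the one whose interval lay above 1. It had 22.95 FPKM (21.7 to 24.3) before puberty and 28.5 (26.9 to 30.2) at puberty, a ratio of 1.24 (1.14 to 1.35). The intervals of the libraries did not overlap. Its share of the beta chain FPKM was 24.8% before puberty and 31.3% at puberty, and Itgb1 over Itgb8 went from 2.88 to 2.07. Itgav, its partner, differed in the other direction, from 15.3 to 12.8 FPKM with a ratio of 0.840 (0.756 to 0.932) as deposited, where equal Actb turned it to 1.11 (1.0 to 1.23).

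Itga6, Itga3 and Itga7 encode alpha chains that pair with the Itgb1 product and are best known as laminin receptors. Itga6 had the highest level of the alpha chains, and Itga3 and Itga7 came next after Itgav. Itga6 had 23.9 FPKM before puberty and 25.04 at puberty. Itga3 had 9.84 and 7.92 FPKM and Itga7, best known from muscle, 7.22 and 6.04 FPKM. Itga6 over Itga3 was 2.43 before puberty and 3.16 at puberty. These genes have several transcripts, so no counting interval was derived for them, and their FPKM depend on how fragments were divided between the transcripts. Itgb4, the other partner of the Itga6 product in epithelial anchoring junctions, was at 0.898 and 0.591 FPKM with a ratio of 0.658 (0.465 to 0.922), under the mean FPKM of 1.

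The transcripts of these genes did not all differ in the same direction. For Itga6, ENSRNOT00000002075 was listed at 13.9 and 15.9 FPKM and ENSRNOT00000045394 at 9.93 and 9.19 FPKM, so the former made up 58.4% of the gene before puberty and 63.3% at puberty. For Itga3, the main transcript ENSRNOT00000035894 was listed at 7.28 and 5.32 FPKM. ENSRNOT00000005644 was listed at 1.61 and 2.43 FPKM and ENSRNOT00000055534 at 0.948 and 0.177 FPKM, in opposite directions. For Itga7, 1 of 3 transcripts, ENSRNOT00000061657, carried all of the FPKM, with 0 listed for the remaining transcripts at both stages.

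Itga1, the alpha chain of a receptor for collagen and laminin on vessel wall cells, had the lowest ratio of the 24 genes. It was listed at 1.72 FPKM (1.44 to 2.04) before puberty and 0.901 (0.677 to 1.18) at puberty, from 132 and 54 fragments. The ratio was 0.523 (0.374 to 0.723). Itga8, a receptor chain for nephronectin and other ligands with the RGD motif, went from 1.39 to 1.02 FPKM, a ratio of 0.735 (0.563 to 0.954). Itga4, whose receptor binds VCAM and fibronectin, went from 1.27 to 0.814 FPKM, a ratio of 0.640 (0.439 to 0.921). All 3 ratios as deposited lay below 1 beyond counting error, with wide intervals as they rest on 46 to 162 fragments. Itga9, a receptor chain for tenascin and other ligands, had 1.99 and 2.16 FPKM and a ratio of 1.08 (0.822 to 1.43).

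Itgam and Itgb2 encode the chains of the complement receptor of microglia and other myeloid cells. Itgam had 2.06 FPKM (1.73 to 2.44) before puberty and 2.62 (2.2 to 3.1) at puberty. Itgb2 had 2.06 (1.70 to 2.48) and 2.59 (2.13 to 3.12). The chains stayed at the same level as each other, Itgam over Itgb2 being 1.0 and 1.01. Their ratios of 1.27 (0.994 to 1.62) and 1.26 (0.958 to 1.65) both included 1 in FPKM as deposited. That of Itgam lay above 1 with equal medians (1.03 to 1.69), and both did with equal Actb (1.32 to 2.15 for Itgam and 1.27 to 2.18 for Itgb2). The 9 microglial markers were all higher at puberty, with a summed level of 332 FPKM before puberty and 390 at puberty and none at 0, and their part in the values of Itgam and Itgb2 was not tested. Itgae, a chain of T cells that bind epithelia, had 1.84 and 1.64 FPKM and a ratio of 0.890 (0.677 to 1.17). The 6 markers of T and NK cells summed to 0.762 FPKM before puberty and 0.491 at puberty, with 3 of the 6 at 0 in each library.

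The other 15 genes lay under the mean FPKM of 1, among them Lama3 and Itgb4, given above. Itga5, the alpha chain of the fibronectin receptor, was at 0.605 and 0.402 FPKM, from 52 and 27 fragments. Itga2b, the alpha chain of the platelet fibrinogen receptor, was at 0.339 and 0.545 FPKM, and its partner Itgb3 at 0.251 and 0.204 FPKM. Of the platelet markers, Pf4 had 2.92 and 5.27 FPKM, Gp1ba 0.477 and 0.737, Gp9 0 and 0.774, and Ppbp was at 0 in both libraries. The 4 markers summed to 3.39 and 6.79 FPKM. For Pf4, Gp9 and Ppbp, with transcripts of 318, 570 and 352 nt, too short for the steps, no fragments were derived. Gp1ba rested on 24 and 29 fragments, and the interval of its ratio, 0.868 to 2.77, included 1. The sums thus have no counting interval, and the part of these markers in the values of Itga2b was not tested. Itgal, Itgb6, Itga2, Itga11, Itgb7, Itgax, Itga10 and Itgad rested on 1 to 33 fragments per library, and each of their ratios had an interval that included 1. Itgb2l was listed at 0 in both libraries, where 3 fragments would be 0.0769 FPKM before puberty and 0.0982 at puberty. Of the genes that are no chains, Itgbl1 went from 5.85 to 4.51 FPKM, a ratio of 0.771 (0.625 to 0.948), and Itgb3bp from 6.28 to 8.77 FPKM, a ratio of 1.4 (1.06 to 1.85).

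The promoters of some chains are shown so that chains of wide use and a myeloid chain can be read side by side. They come from the RefSeq promoter table of build GRCr8, 250 bases before to 50 after the start of each gene, which held 29 of the 39 genes. Itga6, Itga7, Itgal, Itgad, Itgb2, Itgb2l, Itgb3, Itgb4 and Lamb2 were among those not matched. Capitals mark the GC box letters GGGCGG on either strand in Lamc1 (chr13:68051937-68052236, minus strand), Itgb1 (chr19:73602027-73602326, plus strand) and Itgb8 (chr6:146351196-146351495, minus strand). In Itgam (chr1:192089342-192089641, plus strand) they mark GAGGAA on either strand, letters found in sites of PU.1, a factor of myeloid cells.
Lamc1: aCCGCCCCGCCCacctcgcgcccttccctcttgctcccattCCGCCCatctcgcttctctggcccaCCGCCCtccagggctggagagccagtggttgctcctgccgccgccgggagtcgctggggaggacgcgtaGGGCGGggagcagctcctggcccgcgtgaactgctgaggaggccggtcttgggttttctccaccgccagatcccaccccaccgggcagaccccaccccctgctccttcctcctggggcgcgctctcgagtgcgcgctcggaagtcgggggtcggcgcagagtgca
Itgb1: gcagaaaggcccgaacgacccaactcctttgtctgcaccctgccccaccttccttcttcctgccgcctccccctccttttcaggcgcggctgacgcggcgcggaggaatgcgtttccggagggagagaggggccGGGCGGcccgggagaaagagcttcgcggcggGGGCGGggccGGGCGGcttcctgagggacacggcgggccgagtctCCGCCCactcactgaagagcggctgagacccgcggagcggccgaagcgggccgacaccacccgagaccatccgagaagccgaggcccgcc
Itgb8: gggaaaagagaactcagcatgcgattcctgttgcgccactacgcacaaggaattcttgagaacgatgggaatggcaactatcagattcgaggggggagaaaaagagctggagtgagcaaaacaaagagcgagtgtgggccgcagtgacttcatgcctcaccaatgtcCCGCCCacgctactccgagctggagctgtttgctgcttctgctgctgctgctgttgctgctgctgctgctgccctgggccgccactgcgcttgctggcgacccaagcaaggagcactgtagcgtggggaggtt
Itgam: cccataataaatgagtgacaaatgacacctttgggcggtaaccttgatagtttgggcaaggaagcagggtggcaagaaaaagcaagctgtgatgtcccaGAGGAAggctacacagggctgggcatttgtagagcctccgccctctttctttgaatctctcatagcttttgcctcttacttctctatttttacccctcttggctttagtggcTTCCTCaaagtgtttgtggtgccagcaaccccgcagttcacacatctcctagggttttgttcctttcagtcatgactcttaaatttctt

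GC box letters occurred 5 times in the promoter of Lamc1, 4 times in that of Itgb1 and 1 time in that of Itgb8. GAGGAA occurred 2 times in that of Itgam, which also held GC box letters 2 times. GAGGAA, not marked there, also occurred 1 time each in the promoters of Lamc1 and Itgb1, and 0 times in that of Itgb8. The GC content was 71.7% for Lamc1 and for Itgb1, 57.3% for Itgb8 and 46.3% for Itgam, with 28, 35, 14 and 3 CpG dinucleotides. Of the 18 measured chain genes with a promoter, 11 held GC box letters and 8 held GAGGAA, against 33.1% and 27.6% of all 33469 promoters of the table. The median GC content was 61.7% for the 18 promoters and 51.7% for all. These are matches of letters only, and binding was not measured.

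Across both families the differences between the stages were small. Differences are given from here as log2 of (FPKM + 1) in the pubertal over the prepubertal library, a scale that understates the change of low genes. Of the 9 laminin chains, 7 were lower and 2 higher at puberty, with a median log2 ratio of -0.17, where scaling the libraries to equal Actb left 1 of 9 lower. Of the 13 integrin chains, 8 were lower and 5 higher, with a median of -0.16, where the same scaling left 3 of 13 lower. Among all 13804 genes with a mean FPKM of at least 1, 51% were lower and 49% higher at puberty, with a median of -0.01.

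None of the 24 genes, 0 in all, was 1.5-fold lower or higher in FPKM + 1. With a pseudocount of 0.1, Itga1 (log2 ratio -0.86) and Itga4 (-0.59) were past that fold, and with equal Actb, Itgb8 (0.69) and Itgb3bp (0.79). Of all measured genes, 2.41% were at least 1.5-fold lower and 1.77% at least 1.5-fold higher. The log2 ratios of the 24 genes ranged from -0.52 for Itga1 to 0.42 for Itgb3bp, while the central 90% of all measured genes ran from -0.45 to 0.39. Itga1 thus lay at percentile 3.42 of all measured genes, Lamb2 at 8.32, Itgb8 at 91.2 and Itgb3bp at 96.0.

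By counting error alone, the interval of the ratio lay below 1 for 5 of 9 laminin chains, Lamc1, Lamb1, Lamb2, Lama4 and Lama2, and above 1 for none, that is 0 of 9. Of the 10 measured integrin chains with 1 transcript, it lay below 1 for 5, Itgb1, Itgav, Itga1, Itga4 and Itga8, and above 1 for Itgb8. These calls use FPKM as deposited. With equal medians the interval of Lamb1 included 1 and that of Itgam lay above 1, which left 4 laminin and 5 integrin chains below 1. With equal Actb, Itga1 alone of these 19 genes stayed below 1, at 0.693 (0.495 to 0.958), and the intervals of 4 laminin and 6 integrin chains lay above 1. As deposited, the interval lay below 1 for 23.8% and above 1 for 19.4% of all 11315 measured genes with 1 transcript and enough length. These shares were not derived with equal Actb, which moved the median log2 ratio of all genes by 0.37. The plot of ratios gives the intervals.

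**Figure D3:**
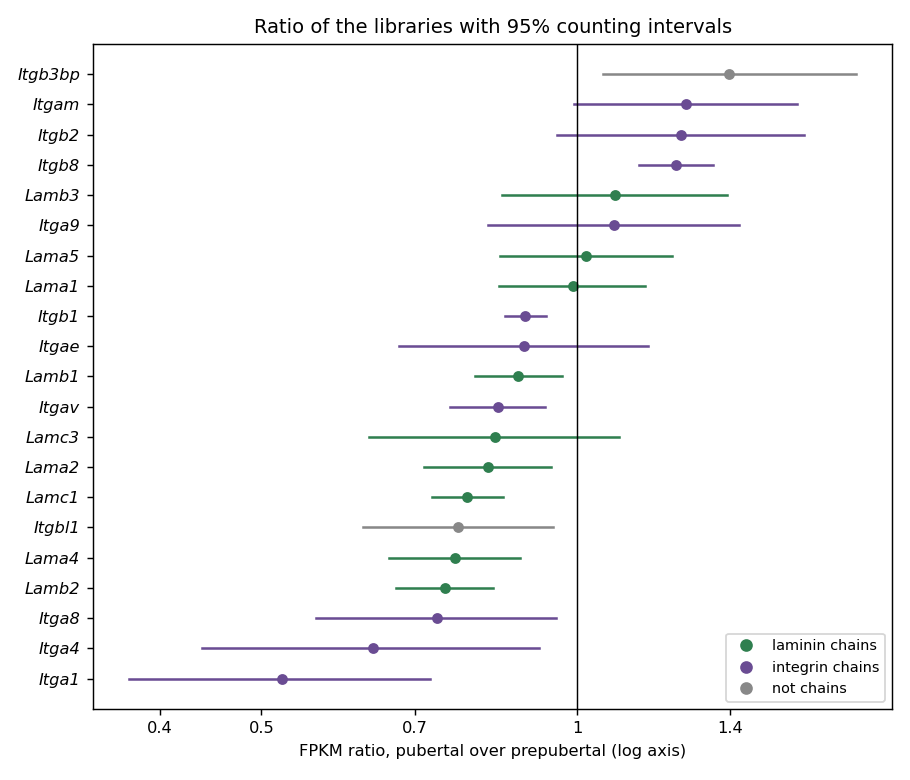
Ratio of pubertal to prepubertal FPKM (log axis) of the 21 measured members with 1 transcript, ordered by ratio; points are the ratios and lines their 95% binomial intervals, which cover counting error only. Itga1 lies lowest at 0.523, and Itgb8 is the chain gene whose interval lies above 1, at 1.24.

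The members have long transcripts, and in these libraries the ratio went with transcript length over all genes. The median length was 5912 nt for the 9 laminin chains and 3456 nt for the 13 integrin chains, against 1995 nt for all measured genes. When all measured genes were placed in 10 classes of length, the median log2 ratio went from 0.07 in the shortest to -0.13 in the longest class, and the share of genes lower at puberty from 41.6% to 77.1%. Among the 4155 measured genes within the length range of the chain genes, 2791 to 11307 nt, 66.6% were lower at puberty, close to 68.2% for the 22 measured chain genes. In that range, the counting interval lay below 1 for 40.5% and above 1 for 12.8% of 3461 genes with 1 transcript. Of the 19 measured chain genes with 1 transcript, it lay below 1 for 10 and above 1 for 1. By direction alone, the count of lower chain genes was therefore near that of other genes of like length.

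The log2 ratios were also set against the median of their length class. The median of the laminin chains became -0.04 and that of the integrin chains -0.09. Lamb2 stood at -0.24, Lamc1 at -0.19 and Lama4 at -0.18, while Lamb1 stood at -0.04 and Lama1 and Lama5 at 0.12 and 0.14. Itga1 stood at -0.44 and Itga4 at -0.25. Itgb8, Itgam and Itgb2 stood at 0.33, 0.31 and 0.28.

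**Figure D4:**
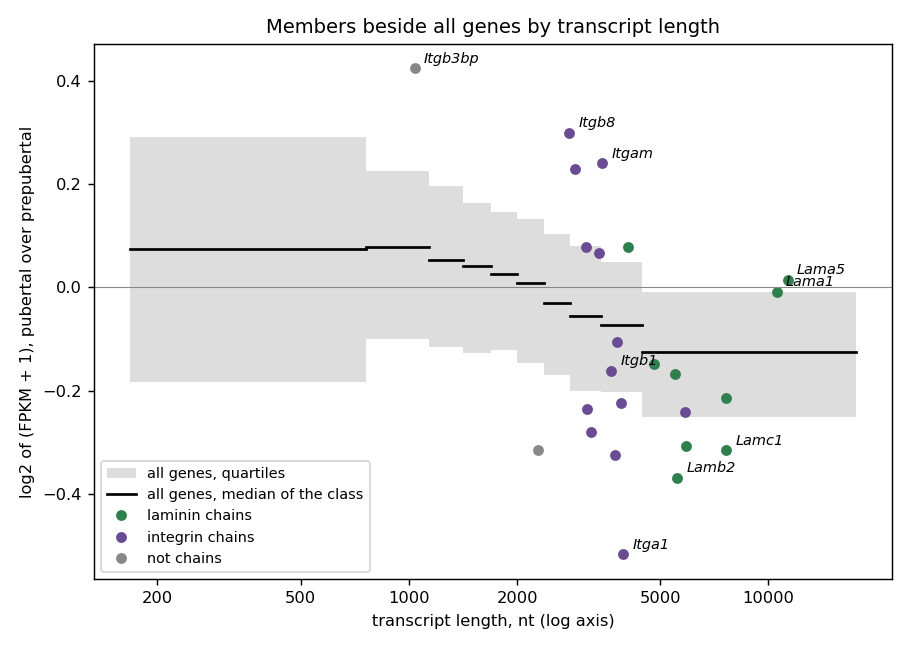
Log2 of (FPKM + 1) in the pubertal over the prepubertal library against transcript length (log axis); black lines and grey bands are the median and quartiles of all measured genes in 10 classes of length, and points are the 24 members. The class medians go from 0.07 to -0.13, with Itgb8 at 0.30 above and Itga1 at -0.52 below the bands.

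Nidogens, type IV collagens and other proteins build basement membranes together with laminin. Of 17 genes of such proteins, 13 were lower and 4 higher, with a median log2 ratio of -0.34 and a median length of 4419 nt, and after scaling to equal Actb 9 were lower and 8 higher with a median of -0.01. Lower genes made up 76.5% of the list, against 51% of all measured genes and 64.3% in the length class that holds its median length. The list mixes lengths, with 11 genes in the length range of the chain genes, 10 of them lower against 66.6% of all genes there, and 6 genes outside it, all shorter, 3 of them lower. Nid1, the link between laminin and collagen networks, went from 15.7 to 9.35 FPKM, a ratio of 0.594 (0.535 to 0.659). Col4a1, a chain of the collagen of all basement membranes, went from 10.7 to 7.06 FPKM, a ratio of 0.660 (0.603 to 0.723). Ntn4, a netrin that binds laminin, differed in the other direction, from 5.59 to 8.75 FPKM with a ratio of 1.57 (1.29 to 1.90). Sparc, a matrix protein that binds collagen, had the highest level of the list, 1174 and 923 FPKM.

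Laminin is also bound by receptors other than integrins, above all dystroglycan. Of 24 genes of the dystroglycan complex and related receptors (23 names, as Dmd is listed as separate genes), 11 were lower and 13 higher, with a median of 0.02, where equal Actb left 5 lower. Lower genes made up 45.8% of the list, near the 51% of all measured genes, and 55.5% were lower in the length class that holds its median length of 2697 nt. Dag1, which encodes dystroglycan, went from 25.8 to 21.0 FPKM. Mcam, an adhesion molecule of vessels that binds Lama4, went from 22.8 to 15.5 FPKM, a ratio of 0.677 (0.616 to 0.745). Dtna, a dystrobrevin of glia and other cells, had the highest level, 50.2 and 53.6 FPKM. Dtnb, a partner of dystrophin in neurons, went from 12.03 to 17.1 FPKM, a ratio of 1.43 (1.29 to 1.57).

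Of 19 measured ligands of integrins other than laminin, 16 were lower and 3 higher, with a median of -0.14, and 5 were at least 1.5-fold lower, while equal Actb left 6 of 19 lower. Over all measured genes 51% were lower and 2.41% at least 1.5-fold lower. In the length class that holds the list's median length of 2632 nt, 55.5% were lower. Within the length range of the chain genes 8 of 8 ligands were lower, against 66.6% of all genes there, and outside it 8 of 11. Mfge8, a secreted protein with an RGD motif, had the highest level, 108 and 105 FPKM. Tnc, a ligand of receptors with the Itga9 and Itgav chains, went from 7.18 to 3.81 FPKM, a ratio of 0.531 (0.468 to 0.60). Npnt, the ligand of the receptor with the Itga8 chain, was listed at 3.37 and 1.73 FPKM. Tgfbi, a ligand that was higher at puberty, went from 6.68 to 9.29 FPKM, a ratio of 1.39 (1.2 to 1.62).

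Inside the cell, integrins are tied to actin and to kinases by adaptors. Of 38 measured adaptor and signalling genes, members left out, 28 were lower and 10 higher, with a median of -0.16, where equal Actb left 2 of 38 lower. Lower genes made up 73.7% of the list, against 51% of all measured genes and 55.5% in the length class that holds its median length of 2664 nt. Ptk2b, a kinase of the focal adhesion family, was listed at 24.4 and 14.6 FPKM, the largest negative difference of the list. Parvg, an adaptor of blood cells, was listed at 0.993 and 1.54 FPKM, a ratio of 1.55 (1.03 to 2.33). Cd81, a tetraspanin, had the highest level, 604 and 586 FPKM.

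The cell type markers moved in different directions beside the members. The 8 markers of fibroblasts and meninges were all lower, with a median of -0.72 and a summed level of 103 FPKM before puberty and 66.0 at puberty, none at 0. Of the 10 endothelial markers 7 were lower and 3 higher, with a median of -0.10 and sums of 166 and 173 FPKM, and of 7 measured mural cell markers 5 were lower and 2 higher, with a median of -0.19. All 8 mural cell markers in the table, 1 of them under the mean FPKM of 1, summed to 122 FPKM in each library. None of either list was at 0. Of the mural cell sums, Rgs5, a marker that was higher, made up 70.9 and 76.3 FPKM. Of the endothelial sums, Slco1a4, which was higher, made up 29.0 and 43.5 FPKM and Cldn5, which was lower, 70.9 and 65.5 FPKM. The 5 general neuronal markers were all lower, with a median of -0.27, while of the 8 peptide genes of hypothalamic neurons 1 was lower and 7 were higher, with a median of 0.42, and all 8 were higher with equal Actb. Astrocyte markers were lower in 3 of 6. With equal Actb, 5 of 8 fibroblast, 2 of 10 endothelial, 1 of 7 mural cell, 2 of 5 neuronal and 2 of 6 astrocyte markers were lower, while all 9 microglial markers were higher under each scaling. Of the lists for blood and other tissue, 4 of 4 red blood cell markers were higher, with summed levels of 6406 and 12539 FPKM, as were 4 of 5 measured pituitary markers. All 6 pituitary markers, 1 of them under the mean FPKM of 1, summed to 31.6 and 44.4 FPKM. Choroid plexus markers were higher in 3 of 6 as deposited and in 6 of 6 with equal Actb. Oligodendrocyte markers were likewise higher in 3 of 6 and, with equal Actb, in 6 of 6. The part of these cell types in the values of the laminin and integrin chains was not tested.

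**Figure D5:**
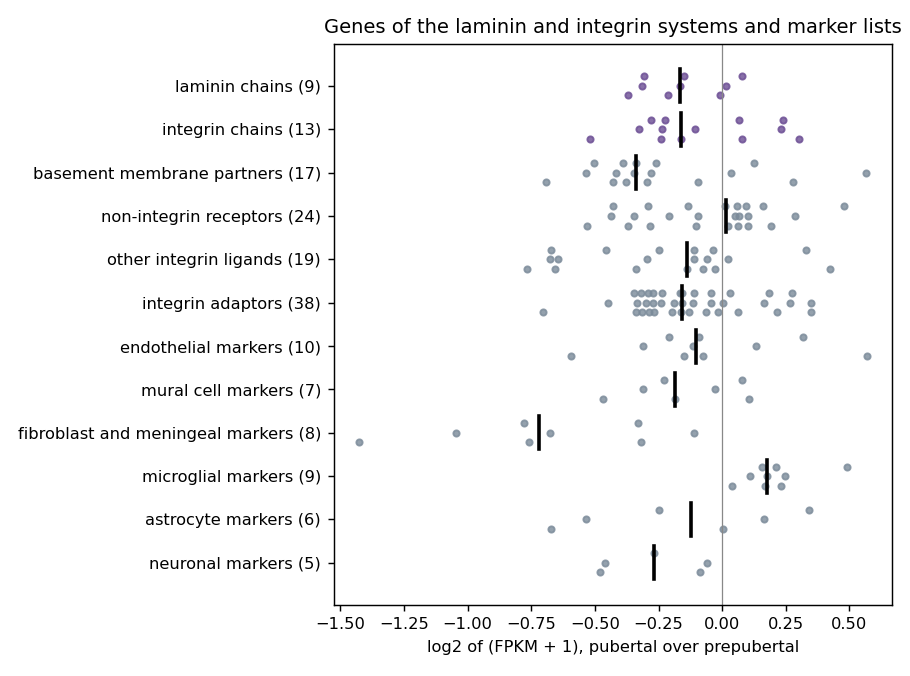
Log2 of (FPKM + 1) in the pubertal over the prepubertal library for each measured gene (points) of the laminin and integrin chains and of other lists, with the number of genes in parentheses and the median as a black bar; vertical offsets separate points only. The medians of the laminin and integrin chains, -0.17 and -0.16, lie between those of the basement membrane partners, -0.34, and of the non-integrin receptors, 0.02, as deposited; with equal Actb all of these medians but that of the basement membrane partners are above 0.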

How the data were processed

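Hypothalamic RNA of prepubertal and pubertal rats was depleted of ribosomal RNA and sequenced from strand-specific libraries. Per the study's methods, TopHat was the aligner and Scripture and Cufflinks (2.1.1) the assemblers, and the authors deposited FPKM per transcript from Cuffdiff (2.1.1). The submitters' processing notes name the build Rnor_5.0, while the methods link a later annotation; no coordinates of the files were used. The deposited comparison table also holds p-values, q-values and log2 ratios of the authors, which were not used; its gene names and lengths were. The lncRNA tables were not used here.

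FPKM were summed per gene, and log2((pubertal + 1) / (prepubertal + 1)) was computed. Medians and counts were taken over genes with a mean FPKM of at least 1. Fragments were derived from FPKM steps in genes with 1 transcript of at least 600 nt, with a length offset fitted per library. Counts above 40 fragments are approximate. With 1 library per stage no test was made. The values of 1 member are not reported here. The members, roles and lists were chosen with earlier results of these data known. Members were named, and of each pathway list the gene with the highest level and those with the largest difference in each direction. Npnt, Col4a1, Dag1, the platelet markers and the endothelial, mural cell and pituitary markers named were added after their values were seen. Other pseudocounts, filters, scalings and fold thresholds, the highest transcript and centring by length were tried. The calculations were tested on simulated data. Tables were handled in Python 3.11.15 with pandas 2.3.3 and numpy 2.4.6, intervals came from scipy 1.17.1, and plots were drawn with matplotlib 3.10.9.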

Additional observations from a re-analysis of the deposited data

How the results depend on the processing

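With 1 library per stage, no library could be left out. No paired analysis was possible because each stage has a single column of values. Equal Actb, which multiplied pubertal FPKM by 1.32 and moved the median of all genes by 0.37, turned the laminin chains to 11.1% lower with a median of 0.095 and the integrin chains to 23.1% lower with a median of 0.16, and changed the sign of 12 of 24 genes. Set against the median of all genes after that scaling, an alternative chosen after seeing the data, 100% of the laminin chains were lower. The integrin chains were 61.5% lower there. Lamb3 then stood at -0.0006 and Lama5 at -0.12, with FPKM ratios as deposited of 1.09 and 1.02. At a mean FPKM of at least 5, 3 laminin chains were left, 100% of them lower, with a median of -0.32. Centring within 10 classes of length brought the laminin median to -0.043. A threshold of 0.32 on the log2 scale gave 4 genes, Lamb2, Itga1 and Itga4 lower and Itgb3bp higher, and a 2-fold threshold gave 0. As deposited, 0 genes passed the 1.5-fold threshold. It was passed by 2 genes with a pseudocount of 0.1, by 2 with equal Actb and by 0 with equal medians, settings chosen after seeing the data. The counting interval, chosen after seeing the data, left out 1 for 13 of 21 genes. With a pseudocount of 0.1, with no filter or a minimum of 0.1, with the highest transcript, with equal medians and with the FPKM of the comparison table, laminin chains were 66.7% to 81.8% lower with medians of -0.24 to -0.12, and integrin chains 61.5% to 72% lower with medians of -0.16 to -0.08. The FPKM of the comparison table were the same for every member, so that setting could change nothing. No measured laminin chain has several transcripts, so the highest transcript could not change the laminin values. Integrin chains were 60% lower with Itgbl1 and Itgb3bp and 70% lower without the leukocyte chains, both chosen after seeing the data. Equal medians and the length classes each changed the sign of 1 gene, Lama1. At up to 40 fragments per library the intervals are wide.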
